A study of Mus musculus with 13 samples.

Results

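Hprt and 9 further genes of purine metabolism were followed in the cerebral cortex of 18-month-old male mice. The 10 genes (Hprt, Aprt, Adk, Adsl, Gmps, Impdh1, Impdh2, Ppat, Gart and Paics) were taken by name, and all 10 were among the 17562 genes of the series. Hprt was picked on its lower log2 fold change in Grn-/-;GRNtg against Grn+/- mice, so its value in that contrast is a description and supports nothing. The others were taken as genes of purine salvage and synthesis. RNA was sequenced from 5 wild-type mice (Grn+/+), 4 mice that kept 1 mouse copy of Grn (Grn+/-), and 4 mice without mouse Grn that carry a human GRN transgene (Grn-/-;GRNtg, the humanized mice). All 13 mice shared sex and age. The sources used here do not give the promoter, copy number or insertion site of the transgene, nor strain, litter or batch. Whether a difference of Hprt in the humanized mice goes with the loss of mouse Grn, the human protein or the place of the transgene cannot be told apart in this design. The values come from comparison tables that hold no value per mouse, so the spread between mice is known only through the standard error (SE) of each fold change, and overlap between groups cannot be shown.

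Cells obtain purine nucleotides by building inosine monophosphate (IMP) stepwise on phosphoribosyl pyrophosphate (PRPP), or by salvage, in which free bases or nucleosides are turned back into nucleotides. HPRT, the product of Hprt, salvages hypoxanthine and guanine, and its inherited loss in people causes Lesch-Nyhan disease, a disorder with overproduction of uric acid and severe neurological signs. APRT salvages adenine, and adenosine kinase, encoded by Adk, phosphorylates adenosine and thereby sets how much adenosine reaches its receptors in the brain. PPAT opens the synthetic route, GART, PAICS and ADSL carry out later steps, IMPDH1 and IMPDH2 commit IMP to guanine nucleotides, and GMPS completes guanosine monophosphate.

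Mouse Grn followed the labels, with log2 fold changes against wild type of -0.65 in Grn+/- and -2.02 in Grn-/-;GRNtg per the authors' deposited tables. Cortical tissue was recognisable by its defining markers: 8 of 8 excitatory neuron markers were measured, with summed mean normalized counts of 124344, against 252 for the 9 measured liver markers per the authors' deposited tables. Of the 3 choroid plexus markers, Kcnj13 alone was listed, at a mean normalized count of 25.1 per the authors' deposited tables. Values for Ttr, which is also on the liver list, and Folr1 were missing, for a reason the sources used here do not give. The choroid plexus content thus cannot be judged from these markers. A gene was called changed where the adjusted p of the authors' Wald test was under 0.05. Against wild type, the Grn-/-;GRNtg group had 5 of 6 liver markers called higher and 2 of 4 endothelial, 1 of 8 nuclear-retained and 1 of 8 excitatory neuron markers lower per the authors' deposited table. Of all genes, 4.87% were called there, 1.81% higher and 3.05% lower. In the same comparison 0 of 5 striatal markers were called, with a median log2 fold change of 0.15, per the authors' deposited table. There were also 0 calls among 6 inhibitory neuron, 5 astrocyte, 5 oligodendrocyte and 5 microglial markers. Their medians were 0.07, -0.14, -0.22 and -0.04, per the authors' deposited table. All 5 striatal markers lay above zero, and all 5 oligodendrocyte and all 5 microglial markers below it. For Grn+/- against wild type, 4 of 8 nuclear-retained RNAs and 2 of 5 astrocyte markers were called lower, and 1 of 8 excitatory neuron markers higher, per the authors' deposited table. Of all genes, 6.8% were called there. Of 5 microglial and 5 oligodendrocyte markers 0 were called, but all lay below zero, with medians of -0.13 and -0.14, per the authors' deposited table. All 6 inhibitory neuron markers lay above zero, with a median of 0.13 and 0 calls, per the authors' deposited table. Between Grn-/-;GRNtg and Grn+/-, 6 of 9 liver markers were called higher, with a median log2 fold change of 0.50, and 0 markers of the other lists, where 0.467% of all genes were called, per the authors' deposited table. Without a call, astrocyte and striatal markers all lay above zero there, with medians of 0.03 and 0.19. Oligodendrocyte and endothelial markers all lay below it, with medians of -0.08 and -0.15, per the authors' deposited table. The part of these shifts in the results on purine genes was not tested. In bulk tissue, fewer cells of a type and less RNA per cell cannot be told apart.

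Hprt (chromosome X, 52988137 to 53021659, plus strand, GRCm38, GENCODE M21) and Aprt (chromosome 8, 122574635 to 122576909, minus strand) encode the phosphoribosyltransferases of base salvage. They had the lowest and the highest fold change of the 10 genes in Grn-/-;GRNtg against wild type, and their promoters are shown for that reason. The sequences are the 250 bases before the RefSeq start (GRCm38.p6), 5′ to 3′ on the gene's own strand, at chrX:52987828-52988077 on the plus strand and chr8:122576908-122577157 on the minus strand, with GC boxes in capitals.
Hprt: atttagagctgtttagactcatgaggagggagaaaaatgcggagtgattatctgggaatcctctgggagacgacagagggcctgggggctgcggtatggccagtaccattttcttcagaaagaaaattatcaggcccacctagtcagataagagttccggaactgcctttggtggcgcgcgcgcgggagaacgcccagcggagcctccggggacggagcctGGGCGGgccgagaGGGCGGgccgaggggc
Aprt: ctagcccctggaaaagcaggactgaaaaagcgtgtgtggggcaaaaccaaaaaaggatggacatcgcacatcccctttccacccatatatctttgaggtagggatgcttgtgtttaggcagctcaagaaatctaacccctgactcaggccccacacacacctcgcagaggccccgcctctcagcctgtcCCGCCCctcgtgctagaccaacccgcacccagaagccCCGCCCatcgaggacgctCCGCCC
The GC box, searched as GGGCGG on both strands, is the letter pattern bound by Sp1-type factors and is common in promoters of widely expressed genes. It occurred 2 times in the Hprt window and 3 times in the Aprt window. Neither window held the TATA box, searched as TATAAA on both strands. Neither held the CCAAT box, searched by those 5 letters on both strands, nor the E-box, searched as CACGTG. Of 12 promoter windows listed for the 10 genes, 12 held a GC box, 1 a TATA box, 4 a CCAAT box and 2 an E-box. Among all 32851 RefSeq windows of this length the shares were 32.7%, 12.4%, 33.8% and 6.02%. The E-boxes lay in the windows before the RefSeq starts of Impdh2 and Paics. The 4 patterns differ from each other, and a match is a description of letters only.

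Hprt was lower in the humanized mice than in either other group. Its mean normalized count over all 13 libraries was 1049 per the authors' deposited tables. Together with the fold changes, taken as unshrunken, this implies levels of 1151 in wild type, 1183 in Grn+/- and 787 in Grn-/-;GRNtg, in mean normalized counts from the authors' deposited tables. The implied Grn-/-;GRNtg level is the lowest, and the others lie close together. These levels carry no error, and Hprt was picked for being lower in Grn-/-;GRNtg than in Grn+/-, so nothing is read from their separation. The log2 fold change in Grn-/-;GRNtg against Grn+/- was -0.59, with a 95% interval of -0.83 to -0.34 from the deposited SE of 0.125 per the authors' deposited table. This was the contrast used to pick the gene, and it corresponds to 66.5% of the Grn+/- level (56.1% to 78.9%) per the authors' deposited table.

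Against wild type the log2 fold change of Hprt in Grn-/-;GRNtg was -0.55 ± 0.128 (SE), with a 95% interval of -0.80 to -0.30 and adjusted p = 0.0023 by the authors' Wald test with DESeq2, per the authors' deposited table. That is 68.4% of the wild-type level, with an interval of 57.5% to 81.4%, computed from the authors' deposited table. The call is not independent of the choice of Hprt, because the same 4 humanized mice enter both contrasts. It was also lost when all statistics of the table were divided by their robust spread, which gave adjusted p = 0.74 and left 5 of 14961 genes called.

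In Grn+/- against wild type, Hprt had a log2 fold change of 0.04 ± 0.128 (SE) and adjusted p = 0.91 per the authors' deposited table. The interval of -0.21 to 0.29 spans 86.4% to 122% of the wild-type level per the authors' deposited table. Shifts of that size in either direction thus lay within the error.

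Aprt, the adenine counterpart of Hprt, had implied levels of 361 in wild type, 396 in Grn+/- and 435 in Grn-/-;GRNtg, in mean normalized counts from the authors' deposited tables. Its log2 fold change in Grn-/-;GRNtg against wild type was 0.27 ± 0.10 (SE), with adjusted p = 0.089, so it did not pass, per the authors' deposited table. The unadjusted p was 0.0075 and the 95% interval 0.07 to 0.46 per the authors' deposited table. Against wild type, Grn+/- mice had 0.13 ± 0.10 (SE) with adjusted p = 0.50, and the mutant groups differed by 0.14 ± 0.104 (SE) with adjusted p = 0.77, per the authors' deposited tables. Aprt and Hprt thus lay on opposite sides of zero in the humanized mice, and a difference between the genes was not tested.

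Adk (chromosome 14, 21052574 to 21448569, plus strand) had implied levels of 813, 848 and 761 in wild type, Grn+/- and Grn-/-;GRNtg, in mean normalized counts from the authors' deposited tables. Its log2 fold change was -0.16 ± 0.068 (SE) in Grn-/-;GRNtg against Grn+/-, with an unadjusted p of 0.021 and adjusted p = 0.43 per the authors' deposited table. It was -0.10 ± 0.065 (SE) in Grn-/-;GRNtg and 0.06 ± 0.064 (SE) in Grn+/- against wild type, with adjusted p = 0.41 and 0.65, per the authors' deposited tables. Adk, which in adult brain is found mainly in astrocytes, was therefore not called in any of the 3 tables.

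None of the 7 enzymes of synthesis and interconversion was called in any comparison. Over all genes, 6.8%, 4.87% and 0.467% were called in Grn+/- and Grn-/-;GRNtg against wild type and between the mutant groups, per the authors' deposited tables. Nothing is read from a count over so few genes. Ppat encodes the amidotransferase that commits PRPP to purines. Its implied levels were 241 in wild type, 240 in Grn+/- and 241 in Grn-/-;GRNtg, in mean normalized counts from the authors' deposited tables. Fold changes of Ppat on the log2 scale were -0.01 and -0.004 against wild type, with SE 0.099 for each, per the authors' deposited tables. Its intervals ran from -0.20 to 0.19 in both, so changes of that size lay within the error.

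Paics encodes the bifunctional carboxylase and synthetase of the route, and its first exon faces that of Ppat on chromosome 5. Its implied levels were 1395, 1505 and 1440 mean normalized counts in wild type, Grn+/- and Grn-/-;GRNtg, from the authors' deposited tables. In Grn+/- against wild type its log2 fold change was 0.11 ± 0.052 (SE), with an unadjusted p of 0.033 and adjusted p = 0.19 per the authors' deposited table. The annotated Ppat (76913249 to 76951578, minus strand) and Paics (76951307 to 76967509, plus strand) overlap by 272 bases on opposite strands. The sources used here do not say how the counting treated strand, so reads of those bases are uncertain.

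Gart encodes a trifunctional enzyme that acts at 3 steps of the route. Its implied levels were 751, 787 and 727 mean normalized counts in wild type, Grn+/- and Grn-/-;GRNtg, from the authors' deposited tables. The log2 fold change in Grn-/-;GRNtg against Grn+/- was -0.11 ± 0.060 (SE), with adjusted p = 0.58, per the authors' deposited table. Adsl, whose product works both in IMP synthesis and on the way from IMP to AMP, had 0.01 ± 0.072 (SE) in Grn+/- and 0.03 ± 0.072 (SE) in Grn-/-;GRNtg against wild type per the authors' deposited tables. The sign of the former turned with the median of the table subtracted.

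At the guanine branch, Impdh1 and Impdh2 encode closely similar isoenzymes, and the sources used here do not say how reads of such related transcripts were assigned. Impdh1 had implied levels of 1456, 1516 and 1481 and Impdh2 of 514, 510 and 525 mean normalized counts in wild type, Grn+/- and Grn-/-;GRNtg, from the authors' deposited tables. Log2 fold changes of Impdh1 were 0.06 ± 0.058 and 0.02 ± 0.058 (SE) in Grn+/- and Grn-/-;GRNtg against wild type per the authors' deposited tables. Those of Impdh2 were -0.01 ± 0.084 and 0.03 ± 0.084 (SE) per the authors' deposited tables. The 3′ end of Impdh2 overlaps the opposite-strand gene Ndufaf3 by 48 bases.

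Gmps, at the last step of that branch, was the member with the lowest fold change in Grn+/- against wild type. Its implied levels were 377, 317 and 348 mean normalized counts in wild type, Grn+/- and Grn-/-;GRNtg, from the authors' deposited tables. The log2 fold change in Grn+/- was -0.25 ± 0.109 (SE), with an unadjusted p of 0.023 and adjusted p = 0.16, per the authors' deposited table. The humanized mice had -0.12 ± 0.109 (SE) with adjusted p = 0.57 per the authors' deposited table. Neither passed.

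Counted together, 0 of the 10 genes were called in Grn+/- against wild type, where 6.8% of all 13482 genes were (2.29% higher and 4.51% lower), per the authors' deposited table. Against wild type the humanized mice had 1 of 10 called, Hprt, where 4.87% of all 14961 genes were (1.81% higher and 3.05% lower), per the authors' deposited table. For Grn-/-;GRNtg against Grn+/- 1 of 10 was called, again Hprt, where 0.467% of all 17562 genes were (0.319% higher and 0.148% lower), per the authors' deposited table. The choice of Hprt fixes the last count and bears on the one before it, so nothing is read from them. Among the other 9 genes 0 were called in any table, with smallest adjusted p of 0.16, 0.089 and 0.43 in these comparisons per the authors' deposited tables. At an unadjusted p under 0.05 the members numbered 2, 2 and 2, of which Hprt is 1 in each contrast of the humanized mice, where 20.2%, 20.5% and 8.99% of all genes were under it, per the authors' deposited tables. The median log2 fold change of the 10 was 0.05, 0.01 and -0.01, against 0.01, 0.01 and 0.001 over all genes, per the authors' deposited tables.

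**Figure D1:**
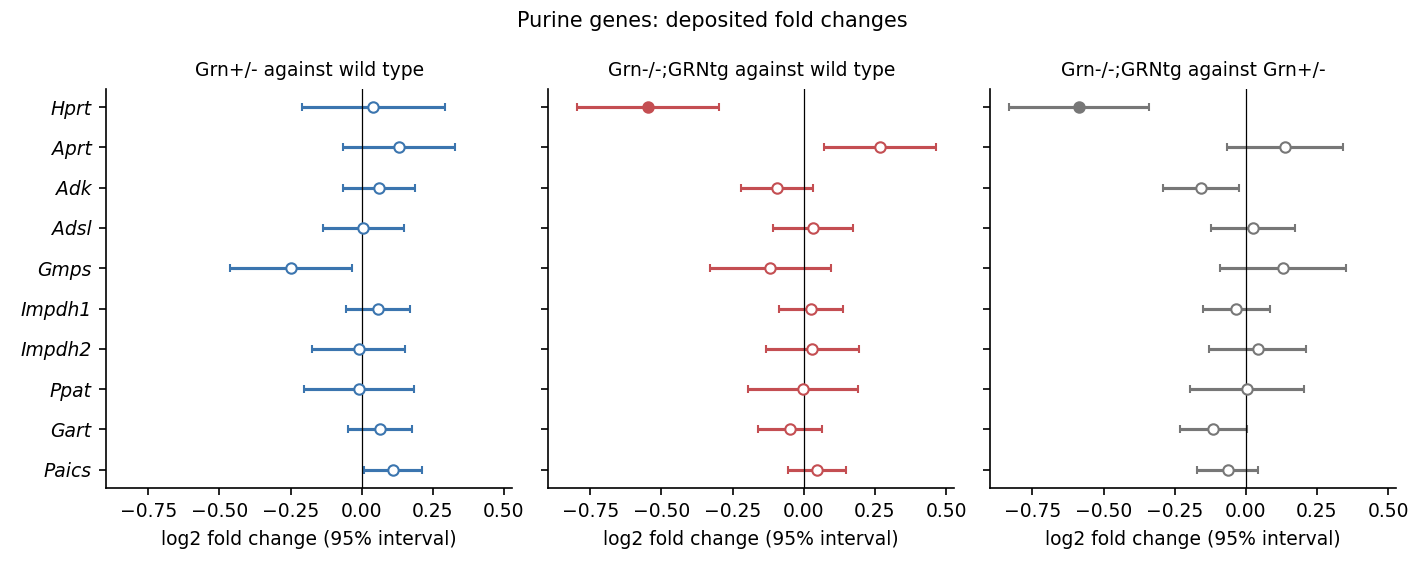
Log2 fold change (horizontal axis) of each of the 10 purine genes in the 3 comparisons, with 95% intervals from the deposited SE; filled points have an adjusted p under 0.05. Hprt sits at -0.55 and -0.59 in the contrasts that involve Grn-/-;GRNtg and at 0.04 in Grn+/- against wild type, while the other 9 genes lie between -0.25 and 0.27.

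The precision of Hprt was poor for a gene of its abundance. Its SE in Grn-/-;GRNtg against wild type was 0.128, against a median of 0.075 among the 4523 genes whose mean normalized count lay within 2-fold of its own, per the authors' deposited table. Of those genes, 96.7% had a smaller SE per the authors' deposited table. The same share was 96.7% in Grn+/- against wild type and 95.2% in Grn-/-;GRNtg against Grn+/- per the authors' deposited tables. Of the enzymes of synthesis, Paics and Gart lay at the other end: Paics had an SE of 0.052, with 4.95% of genes of like abundance below it, and Gart of 0.058, with 5.31% below it, per the authors' deposited table. The other 5 enzymes of synthesis and interconversion ranged from 15.3% for Impdh1 to 76.9% for Gmps per the authors' deposited table. Which mice contribute to the SE of Hprt cannot be seen without values per mouse.

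**Figure D2:**
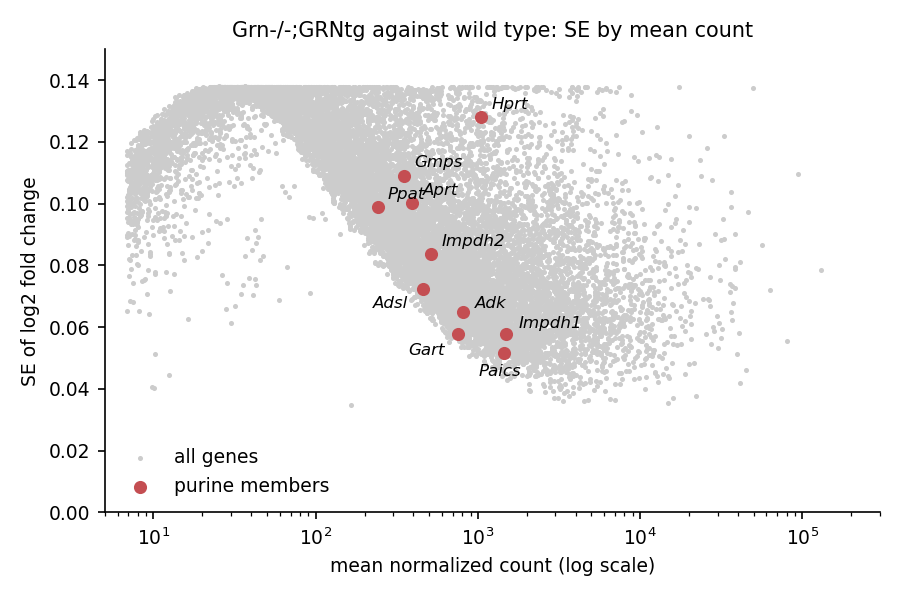
SE of the log2 fold change in Grn-/-;GRNtg against wild type (vertical axis) by mean normalized count (horizontal, log scale), for all genes (grey) and the 10 purine genes (red). Hprt stands at an SE of 0.128 near the upper edge for its count, and Paics and Gart, at 0.052 and 0.058, near the lower edge.

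Levels of different genes can be set side by side only per length. Per kilobase of merged GENCODE exons, Hprt had the highest mean normalized count, 814, followed by Paics at 460 and Impdh1 at 450.0, from the authors' deposited tables. Aprt stood at 244, Impdh2 at 168, Gart at 147, Adk at 94.7, Adsl at 81.3, Ppat at 54.4 and Gmps at 43.1 mean normalized counts per kilobase, from the authors' deposited tables. These levels carry no error, since no value per mouse is at hand, so neighbours such as Paics and Impdh1 are not told apart. Merged exons include those of rare transcripts, which lowers the value of genes with many isoforms such as Adk.

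The wider pathway, a list of purine synthesis, salvage, breakdown, kinase, transporter and signalling genes, includes the 10 members. Of its 78 genes tested in Grn+/- against wild type, 1 was called higher and 2 lower, where 6.8% of all genes were called, per the authors' deposited table. Of 87 tested in Grn-/-;GRNtg against wild type, 2 were called higher and 1 lower, the latter being Hprt, where 4.87% of all genes were called, per the authors' deposited table. Of 93 tested in Grn-/-;GRNtg against Grn+/-, Hprt, picked on this contrast, was alone in being called, where 0.467% of all genes were called, per the authors' deposited table. Without the members the list had 3 of 68, 2 of 77 and 0 of 83 genes called in these comparisons per the authors' deposited tables. The medians of the list with them were 0.02, 0.01 and 0.01 on the log2 scale per the authors' deposited tables.

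By role, the called genes fell in synthesis, the kinases, salvage and breakdown. Among 11 genes of synthesis and PRPP supply, Pfas, which encodes the amidotransferase acting between the GART steps, fell in Grn+/- against wild type by 0.24 (SE 0.073) with adjusted p = 0.020 per the authors' deposited table. The humanized mice had -0.16 ± 0.073 (SE) with adjusted p = 0.17 per the authors' deposited table. With the robust spread of the statistics the call of Pfas was lost (adjusted p = 0.61). The 6 genes of that list that are neither members nor Pfas, among them Atic, which makes IMP itself, were not called in any of the 3 tables.

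Among the kinases, Ak4, a mitochondrial adenylate kinase, fell in Grn+/- by 0.30 (SE 0.097) with adjusted p = 0.036 per the authors' deposited table. Nme2, a nucleoside diphosphate kinase, rose there by 0.17 (SE 0.058) with adjusted p = 0.046 per the authors' deposited table. The same genes in Grn-/-;GRNtg stood at -0.08 (adjusted p = 0.68) and 0.05 (adjusted p = 0.65) per the authors' deposited table. Nme2 lies close to the similar gene Nme1, and the sources used here do not say how reads were split between them. The differences of Ak4 and Nme2 between the mutant groups did not pass, with adjusted p = 0.47 and 0.55 per the authors' deposited table. Both calls in Grn+/- were lost with the robust spread (adjusted p = 0.68 for Ak4 and 0.72 for Nme2), and that of Nme2 also with the median of the table subtracted (adjusted p = 0.061).

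Purine breakdown held both purine genes called higher in the humanized mice against wild type. They were 2 of 14 breakdown genes tested, where 1.81% of all genes were called higher, per the authors' deposited table. Gda encodes guanine deaminase, which competes with HPRT for guanine by turning it into xanthine. It rose in Grn-/-;GRNtg against wild type by 0.38 (SE 0.121) with adjusted p = 0.044, at a mean normalized count of 3482, per the authors' deposited table. In Grn+/- it had 0.17 ± 0.121 (SE) with adjusted p = 0.45, and the mutant groups differed by 0.21 ± 0.124 (SE) with adjusted p = 0.67, per the authors' deposited tables. Uox, urate oxidase, the liver enzyme that degrades uric acid in mice, rose by 0.54 (SE 0.119) with adjusted p = 0.0011, at a mean normalized count of 12.5, per the authors' deposited table. The liver markers Apoa1 at 0.71, Ahsg at 0.61 and Mat1a at 0.49 rose in the same comparison, at mean normalized counts of 20.0, 10.9 and 11.5, per the authors' deposited table. Their part in the value of Uox was not tested. Against Grn+/-, Uox in the humanized mice had 0.39 ± 0.117 (SE) with adjusted p = 0.10 per the authors' deposited table. It was not listed for Grn+/- against wild type. With the robust spread the calls of Gda and Uox were lost, at adjusted p = 0.99 and 0.69. Xdh, xanthine dehydrogenase, and the other 11 breakdown genes tested were not called per the authors' deposited table.

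The remaining purine lists had no called gene. Over all genes, 6.8% were called in Grn+/- and 4.87% in Grn-/-;GRNtg against wild type, and 0.467% between the mutant groups. Nothing is read from 0 calls in lists this short. Of genes that lead from IMP to AMP and GMP, 0 of 8 were called, and Adss, adenylosuccinate synthase, came nearest with 0.14 ± 0.054 (SE) and adjusted p = 0.10 in Grn+/- against wild type per the authors' deposited table. Gmps came next in that list. Of nucleoside transporters 0 of 5 were called in Grn-/-;GRNtg against wild type, with Slc29a3, a lysosomal transporter, at -0.25 ± 0.084 (SE) and adjusted p = 0.053, per the authors' deposited table. In Grn+/- Slc29a3 had -0.23 ± 0.084 (SE) with adjusted p = 0.072 per the authors' deposited table. Slc29a2, a plasma membrane transporter, had -0.12 ± 0.090 (SE) with adjusted p = 0.48 in Grn+/- per the authors' deposited table. Of adenosine receptors, P2 receptors and ectonucleotidases 0 of 22 were called in Grn-/-;GRNtg against wild type, with a median log2 fold change of -0.07, per the authors' deposited table. The lowest adjusted p there was 0.10, for Entpd6 at 0.27 ± 0.105 (SE), and Entpd5 had -0.17 ± 0.094 (SE) with adjusted p = 0.28 in Grn+/-, per the authors' deposited tables.

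**Figure D3:**
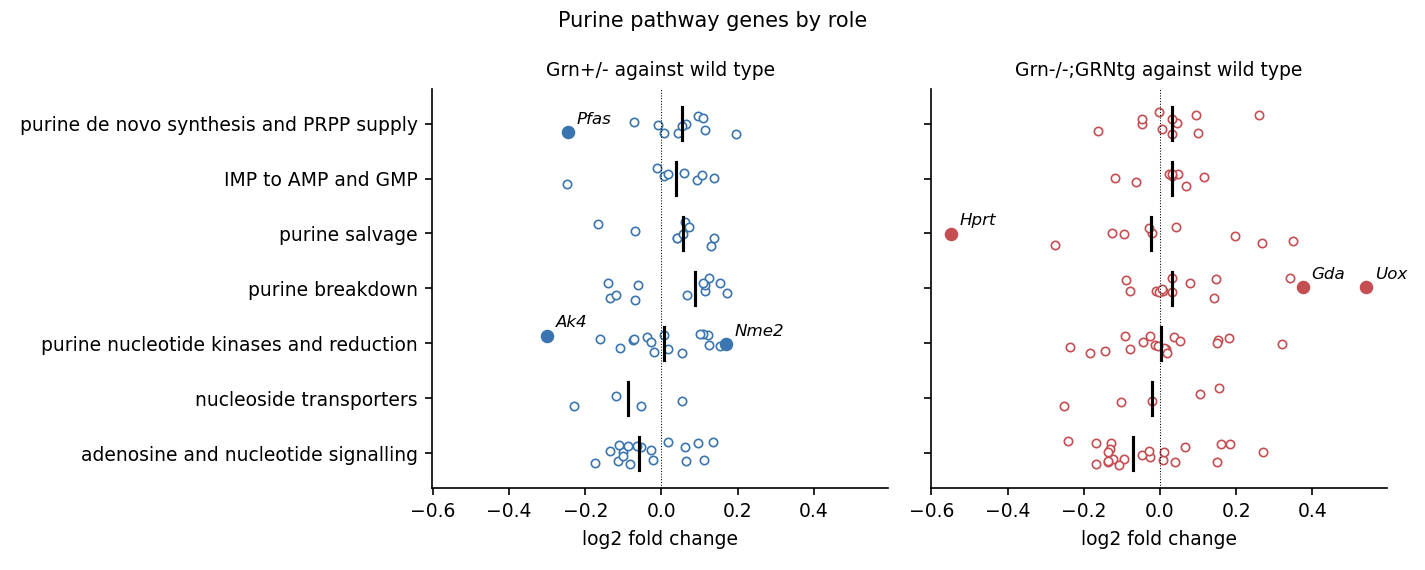
Log2 fold change (horizontal axis) of purine genes by role in Grn+/- (left) and Grn-/-;GRNtg (right) against wild type; each point is a gene, filled where the adjusted p was under 0.05, and black bars are medians. Hprt at -0.55 and Uox at 0.54 lie farthest from zero, and the medians of the 7 roles lie between -0.09 and 0.09.

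Pyrimidine metabolism, the sister pathway that also draws on PRPP, was set beside the purine genes. Of pyrimidine genes 0 of 17 were called in Grn+/- and 0 of 18 in Grn-/-;GRNtg against wild type, per the authors' deposited tables. Over all genes the shares called were 6.8% and 4.87%, so nothing is read from these counts. Dhodh, of pyrimidine synthesis, had 0.25 ± 0.091 (SE) with adjusted p = 0.078 in Grn+/-, and Dpyd, of pyrimidine breakdown, 0.31 ± 0.137 (SE) with adjusted p = 0.17 in Grn-/-;GRNtg, per the authors' deposited tables.

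Hprt is often used as a reference gene in quantitative PCR, so it was set beside 17 others used that way. Hprt in Grn-/-;GRNtg against wild type had the lowest of the 18 fold changes. That rank is not independent of its choice, since the same humanized mice enter both contrasts. The highest against wild type was Polr2a at 0.26 ± 0.072 (SE) with adjusted p = 0.014 per the authors' deposited table. Actb, beta-actin, rose there by 0.17 (SE 0.044) with adjusted p = 0.0096 per the authors' deposited table. In Grn+/- against wild type Gapdh rose by 0.20 (SE 0.064) and Pgk1 by 0.22 (SE 0.065), both glycolytic enzymes, with adjusted p = 0.030 and 0.019 per the authors' deposited table. These calls were lost with the robust spread, at adjusted p = 0.99 for Polr2a, 0.93 for Actb, 0.67 for Gapdh and 0.61 for Pgk1. Against Grn+/-, Hprt alone of the 18 was called, where 0.467% of all genes were, per the authors' deposited table. Hprt was picked on this contrast, so nothing is read from that count. The median of the list there was 0.004 on the log2 scale per the authors' deposited table.

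No other gene within 1 Mb of the start of Hprt on chromosome X was called lower in any comparison. The genes tested there numbered 6, 7 and 11 in Grn+/- and Grn-/-;GRNtg against wild type and between the mutant groups. Over all genes, 4.51%, 3.05% and 0.148% were called lower in these comparisons, so nothing is read from these counts. Within this window, 7 other genes were tested in Grn-/-;GRNtg against wild type, with 2 called higher and 0 lower, per the authors' deposited table. Over all genes, 4.87% were called in that comparison, 1.81% higher and 3.05% lower. The median log2 fold change of the 7 was 0.10 per the authors' deposited table. The nearest tested gene was Phf6, a chromatin-associated protein gene that starts 75.9 kb before Hprt, at -0.08 ± 0.104 (SE) with adjusted p = 0.71 per the authors' deposited table. Fam122b starts 282 kb beyond Hprt and had 0.05 ± 0.126 (SE) with adjusted p = 0.85, and Mospd1, at 382 kb, had -0.16 ± 0.106 (SE) with adjusted p = 0.38 per the authors' deposited table.

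The called neighbours were Gpc3 and Gpc4, adjoining genes for glypicans, which are heparan sulfate proteoglycans of the cell surface. Gpc3 starts 374 kb before Hprt and rose by 0.46 (SE 0.137) with adjusted p = 0.024 per the authors' deposited table. Gpc4 starts 823 kb before Hprt and rose by 0.42 (SE 0.137) with adjusted p = 0.049 per the authors' deposited table. In Grn+/- they had 0.22 ± 0.136 and 0.01 ± 0.137 (SE), with adjusted p = 0.37 and 0.99, per the authors' deposited table. Against Grn+/-, the humanized mice had 0.24 ± 0.136 and 0.41 ± 0.136 (SE) for Gpc3 and Gpc4, with adjusted p = 0.62 and 0.18 per the authors' deposited table. The calls of Gpc3 and Gpc4 were lost with the robust spread (adjusted p = 0.99 for each), and that of Gpc4 also with the median subtracted (adjusted p = 0.052). Ccdc160 had 0.10 ± 0.130 (SE) and the pseudogene AW822252 had 0.27 ± 0.138 (SE) in Grn-/-;GRNtg against wild type, and neither passed, per the authors' deposited table. A further 4 genes (C430049B03Rik, 4930502E18Rik, Zfp36l3 and Xlr) were listed for Grn-/-;GRNtg against Grn+/- alone, at mean normalized counts of 0.542 to 4.71, and were not called per the authors' deposited table.

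Over chromosome X as a whole, 14 genes were called higher and 29 lower of 441 in Grn+/- against wild type, or 9.75%, beside 6.8% of all genes, per the authors' deposited table. A further contrast had 15 called higher and 12 lower of 500, for Grn-/-;GRNtg against wild type, or 5.4%, beside 4.87% of all genes, per the authors' deposited table. For Grn-/-;GRNtg against Grn+/- 2 of 593 were called, or 0.337%, beside 0.467% of all genes, per the authors' deposited table. They were Hprt, which was picked on this contrast, and Tenm1, a teneurin cell adhesion gene named here after its value was seen. Tenm1 was higher by 0.54 ± 0.138 (SE) with adjusted p = 0.027 per the authors' deposited table. Against wild type it was called lower in Grn+/-, at -0.51 ± 0.137 (SE) with adjusted p = 0.0084, per the authors' deposited table. In Grn-/-;GRNtg against wild type it had 0.03 ± 0.137 (SE) with adjusted p = 0.94, per the authors' deposited table.

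**Figure D4:**
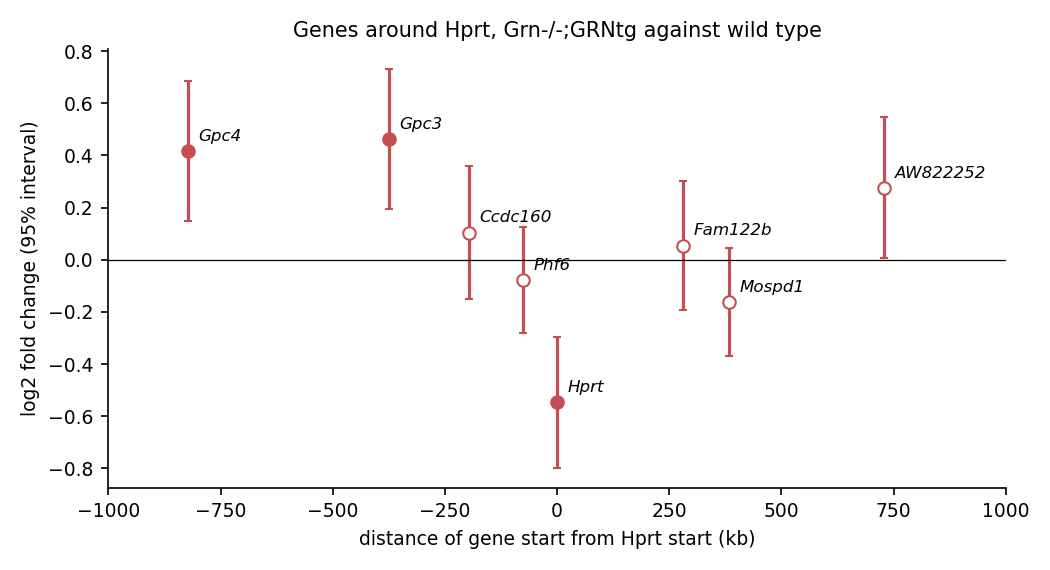
Log2 fold change in Grn-/-;GRNtg against wild type (vertical axis, 95% intervals from the deposited SE) of genes within 1 Mb of Hprt, by the distance of their start from that of Hprt in kb; filled points have an adjusted p under 0.05. Hprt lies at -0.55, its nearest neighbours Phf6 and Ccdc160 at -0.08 and 0.10, and Gpc3 and Gpc4 at 0.46 and 0.42.

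The genes most like Hprt in their pattern were found by distance in the plane of the fold changes of Grn+/- and Grn-/-;GRNtg against wild type, on the log2 scale, among genes in all 3 tables with a mean normalized count of at least 100. With 3 genotypes there are 2 free fold changes, so likeness here is over 2 values. The nearest was Csrnp1, a nuclear protein gene, at a distance of 0.115, with 0.07 in Grn+/- and -0.66 in Grn-/-;GRNtg against wild type, per the authors' deposited tables. Next came Btg2, an antiproliferative gene (distance 0.122, with 0.02 and -0.43), and Zfhx4, a homeobox gene (distance 0.123, with -0.04 and -0.45), from the authors' deposited tables. Klf10, a zinc finger factor, followed at 0.125 (0.002 and -0.43) and Cdc42ep3, an effector of the GTPase CDC42, at 0.136 (0.05 and -0.41), from the authors' deposited tables. SEs of these fold changes lay between 0.106 and 0.135 per the authors' deposited tables, about as large as the distances, so the order of these genes is not resolved.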

How the data were processed

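Deposited comparison tables of RNA-seq from mouse cortex were used (13 mice, 3 genotypes). DESeq2 1.34.0, R 4.1.2 and build mm10 are named in the submitters' processing notes, and a strand-marking kit was used on total RNA, per the labels' protocols. The aligner, counter, strand setting and annotation have no entry in those sources. Per the file headers, the authors give a signal, the mean normalized count over libraries, a log2 fold change, its SE and the Wald statistic, which are scores computed by the authors, and a p-value and adjusted p-value. Depth per mouse is unknown. In each table the statistic equalled the fold change over its SE, and Benjamini-Hochberg adjustment of the p-values returned the adjusted values. Their fold changes are additive, so the contrasts share mice and are not independent. SEs reach 0.138 in all tables and are small again at low counts, as shrinkage of fold changes towards 0 would give, and the sources do not say whether the authors shrank them. Nothing says that the mice are of separate litters. P-values weigh each difference between groups against the spread between these mice, as estimated by the authors' model.

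Rows that name no gene were left out; reads assigned to no gene made up 17.0% of mean normalized counts in the authors' deposited table. A call is an adjusted p under 0.05 in the authors' table, two-sided. Intervals are the fold change ± the SE times the normal 95% quantile. Group levels were solved from the mean normalized count, the fold changes and the numbers of mice, and take fold changes as unshrunken. Where the fold changes are shrunken, these levels and the percentages of a reference group understate the differences. The calculations were tested on simulated data. The 10 genes, the lists and the tests were chosen with earlier results of these data known. Named genes were the 10, called list genes or, in lists without one, the 2 nearest to the threshold, genes within 1 Mb of Hprt, the 5 nearest in pattern, and Grn. Some genes that this rule names, and the lists that hold them, are not reported here. Positions are from GENCODE M21 (GRCm38, the assembly that mm10 names) and promoters from RefSeq (GRCm38.p6), where all 10 genes matched. Other thresholds, gene sets for adjustment, filters, centring and scaling were tried. Python 3.11.15, numpy 2.4.6, pandas 2.3.3, scipy 1.17.1 and matplotlib were used.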

Additional observations from a re-analysis of the deposited data

How the results depend on the processing

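Results were recomputed with adjusted p under 0.10 and under 0.01, adjustment over the 13482 genes in all 3 tables, a mean normalized count of at least 100, a minimum absolute log2 fold change of 0.3, fold changes centred on the median, and statistics divided by their robust spread. Of 210 values of single members under these settings, 207 kept their direction and side of the threshold. Much of this was fixed in advance. Centring alone alters the fold changes, so direction could not turn under the other settings. The threshold of 0.01 and the minimum fold change can only remove calls, and most of these values were not called as deposited. Aprt in Grn-/-;GRNtg against wild type passed at 0.10 (adjusted p = 0.089), Hprt there did not pass with the robust spread (adjusted p = 0.74), and Adsl in Grn+/- turned to -0.0020 with centring. Called members in Grn-/-;GRNtg against wild type numbered 1 as deposited, 2 at 0.10 and 0 with the robust spread. The wider purine list in Grn+/- against wild type had 3 called as deposited, 5 at 0.10, 2 with centring, and 0 at 0.01, with the minimum fold change, and with the robust spread. In Grn-/-;GRNtg against wild type it had 3, then 7 at 0.10, 4 with centring, 2 at 0.01 and 0 with the robust spread. Settings were also applied, after the data were seen, to 11 called genes of the purine and reference lists and beside Hprt: 9 lost their call at 0.01, 7 with the minimum fold change, 2 with centring and 11 with the robust spread. The robust spread left 3, 5 and 29 genes called over all genes, in place of 917, 728 and 82. In Grn-/-;GRNtg against Grn+/- the counts of 1 held under every setting listed. The gene counted is Hprt, picked on this contrast, so nothing is read from that. No paired analysis was possible because the tables hold no value per mouse, and for the same reason no mouse could be left out. Depth per mouse is unknown, so no detection limit can be given.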
